A study of Mus musculus with 2 samples.

Results

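Got1, the cytosolic aspartate aminotransferase, and the 6 other genes of the malate-aspartate shuttle were followed across the cell types of the lactating mouse mammary fat pad. The 7 genes (Got1, Got2, Mdh1, Mdh2, Slc25a11, Slc25a12 and Slc25a13) were chosen by name out of 33943 genes in the count matrix, and each matched 1 gene. Got1 was selected on its higher level in the animals labelled Oxtr-KO in these same nuclei, so its difference between the genotype labels is given as a description, without a test. The question for its 6 partners was whether any of them moved with it.

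The shuttle carries the electrons of cytosolic NADH into mitochondria, whose inner membrane NADH itself cannot cross. In the cytosol, Got1 makes oxaloacetate from aspartate and Mdh1 reduces it to malate with NADH; malate enters the mitochondrion through the 2-oxoglutarate and malate carrier Slc25a11. Inside, Mdh2 and Got2 run the same steps the other way, and the aspartate and glutamate carriers Slc25a12 (aralar) and Slc25a13 (citrin) return aspartate to the cytosol. In the lactating gland, the same reactions sit beside the routes that supply aspartate, citrate and reducing power to a secretory epithelium.

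Single-nucleus RNA sequencing was done on inguinal white adipose tissue, the fat pad that holds the mammary gland, of lactating dams on postnatal day 11 of their litters. Nuclei of 4 animals whose hashtags are named WT and 4 whose hashtags are named Oxtr-KO were pooled into 1 droplet library with a matching hashtag library. The animals named WT were taken as the dams with the floxed Oxtr allele (Oxtr flox), which is the only other genotype in the labels, and those named Oxtr-KO as dams with Oxtr, the oxytocin receptor gene, deleted in adipocytes (Adipo-specific Oxtr KO). Breeding began at 8 weeks of age, and no source used here names the Cre driver, the strain or the age of the dams at collection. All dams ate standard chow, lymph nodes were removed, and the fat pads were frozen before nuclei were isolated. Litter sizes are listed for the 8 dams, 1 of them smaller than the rest, but the list is not tied to hashtags.

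Of 20854 barcodes kept, 13057 nuclei carried 1 named hashtag, between 1200 and 1991 per animal, with 5842922 to 10964520 UMIs (counted molecules) per animal and a median of 4342 to 5610 UMIs per nucleus. Clusters were named from marker genes, and each name stands for nuclei like that type: secretory luminal-like (9654 nuclei), myoepithelial-like (937), fibroblast-like (703), adipocyte-like (369), luminal progenitor-like (285), vascular endothelial-like (203) and macrophage-like nuclei (190), and an unnamed cluster led by the myeloid gene Klra2 (216 nuclei). These 8 were compared between genotypes. The secretory name rests on few markers that stood out against the median of the other clusters. In the secretory clusters led by Clec12a and by Top2a these were Btn1a1, Xdh and Elf5, with no casein or whey gene. The secretory cluster led by Ak9 matched the luminal progenitor list as well, with Krt18, Elf5 and Lbp. All 10 secretory markers stood out in a cluster of low-depth nuclei, which was not compared. The check of the deleted gene in adipocyte nuclei went against the labels: there the 4 WT animals together held 4 Oxtr UMIs, 5.26 ± 0.779 CPM (the gene's UMIs per 1000000 UMIs of those nuclei; SD, n = 4), and the 4 animals labelled Oxtr-KO held 17, 15.7 ± 4.43. The check rests on few UMIs. Each WT animal held 1, so the SD of their CPM reflects only their different totals, and each animal labelled Oxtr-KO held 3 to 5. Myoepithelial nuclei, in which the labels name no deletion, held more Oxtr, 234 ± 17.4 CPM in WT animals (221 to 260) and 192 ± 15.2 in those labelled Oxtr-KO (178 to 209). Whether the reads lie in the deleted part of the gene is not given, so every direction below is that of the label. RNA of the secretory epithelium was found in every cell type, where Elf5 and Xdh, genes of secretory luminal cells, together made up a mean of 1038 CPM in adipocyte nuclei of WT animals, the lowest of the types compared, and 5493 in secretory nuclei.

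The start of each shuttle gene was read from RefSeq to show what the 7 promoters share. All 7 genes matched the RefSeq promoter table (GRCm38.p6). The 250 bases before the start are printed for Got1, for its cytosolic partner Mdh1 and for the carrier gene Slc25a13, the genes the results below turn on, each 5′ to 3′ on its own strand, which is the minus strand for all of them. Capitals mark the match of TGATGNAA, the core of the C/EBP-ATF response element, on the other strand in Got1, and of the E-box CACGTG in Slc25a13, and nothing is marked in Mdh1. The windows are chr19:43524606-43524855 for Got1, chr11:21571935-21572184 for Mdh1 and chr6:6217174-6217423 for Slc25a13.
Got1: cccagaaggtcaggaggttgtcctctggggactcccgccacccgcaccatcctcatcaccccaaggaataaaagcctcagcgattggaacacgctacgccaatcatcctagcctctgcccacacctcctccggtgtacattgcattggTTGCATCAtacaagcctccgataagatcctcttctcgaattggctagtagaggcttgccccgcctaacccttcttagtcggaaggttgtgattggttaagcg
Mdh1: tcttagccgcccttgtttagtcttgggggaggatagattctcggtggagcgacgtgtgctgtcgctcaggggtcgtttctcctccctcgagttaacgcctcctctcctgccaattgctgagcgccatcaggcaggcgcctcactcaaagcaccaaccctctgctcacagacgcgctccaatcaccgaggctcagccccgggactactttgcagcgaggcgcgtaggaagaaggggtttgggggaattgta
Slc25a13: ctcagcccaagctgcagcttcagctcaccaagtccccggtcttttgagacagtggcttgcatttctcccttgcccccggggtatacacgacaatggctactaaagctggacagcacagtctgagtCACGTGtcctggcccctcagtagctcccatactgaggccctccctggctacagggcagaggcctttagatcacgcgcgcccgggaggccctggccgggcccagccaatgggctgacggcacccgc

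Motifs were counted on both strands of the full table windows, 250 bases before to 50 after the start, in 32851 promoters. TGATGNAA was found in 3.97% of all promoters and, of the 7 genes, in Got1, 102 bases before the start. CACGTG stood in 7.15% of promoters and in Slc25a13, 125 bases before the start. The cyclic AMP element TGACGTCA was in 1.79% of promoters and in Mdh2. The core promoter element TCGCGAGA was in 0.995% of promoters and in 2 of the 7 genes, Mdh2 and Slc25a11, where its matches on the 2 strands of Mdh2 overlap. The CCAAT box was the most common, in 37.4% of all promoters and in 4 of the 7 genes, with 6 matches in the Got1 window. No motif was found in all 7 promoters. These are matches of letters and say nothing about binding.

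Got1 was higher in the animals labelled Oxtr-KO in secretory luminal nuclei, the milk-producing epithelium and the source of most nuclei. The 4 WT animals stood at 331, 332, 359 and 417 CPM and the 4 labelled Oxtr-KO at 815, 623, 630 and 797. The means were 360 ± 40.1 and 716 ± 104 (SD, n = 4 each), a log2 difference of 0.96 (SE 0.14). The lowest animal labelled Oxtr-KO lay above the highest WT animal; of all 12836 genes tested in these nuclei, 3.63% had groups that did not overlap, and since Got1 was selected on this contrast nothing is read from that. Once each nucleus was thinned to 1000 UMIs, leaving out 1 of the 9654 nuclei, 26.1% to 29.2% of secretory nuclei of WT animals held a Got1 UMI, against 38.1% to 47.2% in animals labelled Oxtr-KO. Unthinned shares were 65.9% to 73.0% and 69.3% to 85.3%. Thinned shares in adipocyte nuclei, a lower-level type, were 2.26% to 6.28% and 5.98% to 10.6%.

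The higher Got1 level was present in each cluster of secretory nuclei. Secretory nuclei formed 3 clusters, led by Ak9, by Clec12a and by the cell cycle gene Top2a, and Got1 is itself among the leading genes of the first. WT animals had a mean of 46.0% ± 26.9 of their secretory nuclei in the Ak9 cluster and animals labelled Oxtr-KO 57.3% ± 7.66. Mean Got1 was 357 in WT animals and 682 in animals labelled Oxtr-KO in the Ak9 cluster, 366 and 765 in the Clec12a cluster, and 342 and 646 CPM in the Top2a cluster. The mean was thus higher under the Oxtr-KO label in each cluster, which describes the contrast Got1 was selected on.

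Outside the secretory nuclei, Got1 was also higher under the Oxtr-KO label in all 7 other cell types. Myoepithelial nuclei, the contractile cells around the alveoli, had 128, 113, 112 and 124 CPM in WT animals and 365, 309, 367 and 423 in animals labelled Oxtr-KO, with means of 119 ± 8.25 and 366 ± 46.4 (SD, n = 4) and a log2 difference of 1.58 (SE 0.15). The groups lay far apart and both were tight, where 4.12% of tested genes had groups that did not overlap. In luminal progenitor nuclei the WT animals stood between 52.7 and 70.9 and the others between 126 and 267, with means of 62.0 and 190 CPM (3.12% of tested genes without overlap). Macrophage nuclei ran from 64.4 to 281 in WT animals and from 328 to 671 in those labelled Oxtr-KO, with means of 190 and 522 (2.19%). Got1 overlapped in the remaining types, where 3.91% of tested genes in adipocyte nuclei, 3.12% in fibroblast nuclei, 2.65% in endothelial nuclei and 2.84% in the Klra2 cluster did not. Adipocyte nuclei ran from 30.8 to 131 against 120 to 218 CPM, fibroblast nuclei from 140 to 246 against 217 to 317, the Klra2 cluster from 136 to 379 against 265 to 948, and endothelial nuclei from 139 to 339 against 218 to 705. In fibroblast nuclei the overlap rests on 1 WT animal, number 4, at 246. The log2 differences were 1.64 in luminal progenitor nuclei, 1.44 in the Klra2 cluster, 1.34 in macrophage nuclei, 1.01 in adipocyte nuclei, 0.74 in endothelial nuclei and 0.70 in fibroblast nuclei. Over all nuclei of an animal the means were 322 and 619 CPM, without overlap as for 3.39% of tested genes, and the log2 difference was 0.90.

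**Figure D1:**
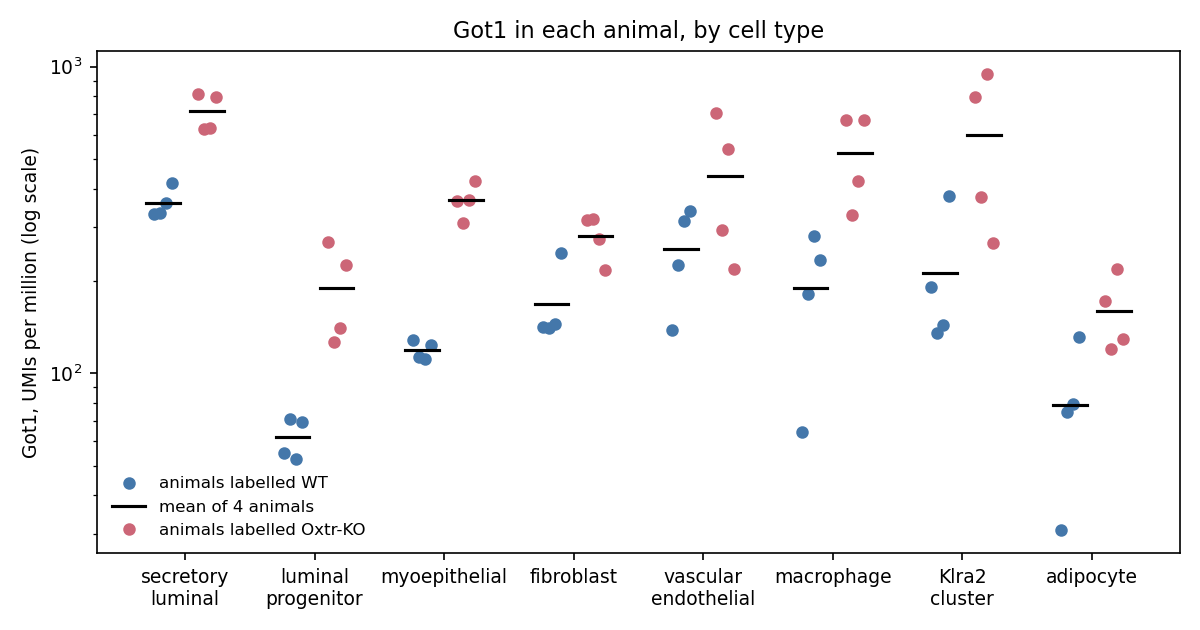
Got1 in CPM (log axis) in each animal for 8 cell types, WT animals in blue and animals labelled Oxtr-KO in red, with the mean of 4 animals as a bar. The groups do not overlap in secretory luminal, luminal progenitor, myoepithelial and macrophage nuclei, and overlap in the 4 other types.

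In each non-luminal type compared, Got1 was higher in nuclei with 5 or more UMIs of secretory genes than in those with fewer. With 20 or more such UMIs the labels stood apart in each of these types except adipocyte nuclei. Below that the types differed. Nuclei were split by their UMIs of Elf5 and Xdh, at limits chosen after the data were seen. Among myoepithelial nuclei without any such UMI, Got1 stood at 37.5 CPM over 184 nuclei of WT animals (95% Poisson interval 22.2 to 59.3) and at 27.0 over 143 nuclei of animals labelled Oxtr-KO (12.9 to 49.6). With 1 to 4 such UMIs it stood at 30.7 and 35.6. With 5 to 19 it was 276 and 531, and with 20 or more 199 (169 to 233) and 635 (582 to 691). The difference between the labels was therefore seen in nuclei with at least 5 Elf5 and Xdh UMIs, and the intervals overlapped below that. These intervals cover counting error only and pool the 4 animals of a label. Depth rose over the bins as well, from a median of 2522 UMIs per nucleus with none to 8636 with 20 or more in myoepithelial nuclei of WT animals.

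In fibroblast nuclei the labels stood apart in the highest bin only. Got1 was 39.8 in WT animals and 24.6 in animals labelled Oxtr-KO in nuclei with no Elf5 or Xdh UMI, and 27.4 and 24.7 CPM with 1 to 4. It was 220 and 224 with 5 to 19, and 269 and 580 with 20 or more. Adipocyte nuclei with no such UMI held 0 Got1 UMIs in 73657 in WT animals, which allows up to 50.1 CPM, and 2 in 92892 in animals labelled Oxtr-KO (21.5). With 1 to 4 UMIs they stood at 11.0 (3.57 to 25.7) and 38.9 (24.3 to 58.8), with 5 to 19 at 89.0 (47.4 to 152) and 170 (114 to 245), and with 20 or more at 418 (300 to 567) and 430 (356 to 514). Adipocyte nuclei thus did not show the pattern of the myoepithelial and fibroblast nuclei: the labels were closest in the highest bin, which holds 11 and 20 nuclei. In endothelial nuclei no more than 2 Got1 UMIs were found under either label in any bin below 5 Elf5 and Xdh UMIs. Macrophage nuclei and the Klra2 cluster gave 3 to 9 Got1 UMIs per label in each of those bins, with overlapping intervals. With 5 to 19, the labels stood apart in macrophage nuclei, at 212 (116 to 356) and 491 (362 to 651), and overlapped in endothelial nuclei and the Klra2 cluster. With 20 or more, Got1 was 287 (223 to 365) and 759 (663.5 to 865) in macrophage nuclei. It was 308 (258 to 365) and 706 (631.5 to 786) in the Klra2 cluster, and 322.5 (266 to 388) and 577 (510 to 650) in endothelial nuclei.

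Elf5 and Xdh themselves differed between the labels in adipocyte nuclei, where the animals did not overlap, and overlapped in the 7 other types compared. The WT and Oxtr-KO means of Elf5 and Xdh were 2230 ± 670 and 2348 ± 223 CPM in myoepithelial nuclei, 2664 ± 196 and 2212 ± 351 in fibroblast nuclei, and 1038 ± 103 and 1510 ± 214 in adipocyte nuclei. Each Elf5 or Xdh UMI came with 0.0674 ± 0.0179 Got1 UMIs in secretory nuclei of WT animals and 0.0576 ± 0.0196 in their myoepithelial nuclei. In animals labelled Oxtr-KO the ratios were 0.148 ± 0.0292 and 0.158 ± 0.0344. The other types compared ran from 0.0157 in luminal progenitor nuclei to 0.0869 in the Klra2 cluster in WT animals. Under the Oxtr-KO label they ran from 0.0442 in luminal progenitor nuclei to 0.188 in macrophage nuclei. The ratios were not compared by a test. Nuclei with the highest 5% of Scrublet doublet scores were 11.1% of myoepithelial nuclei of WT animals and 17.3% of those labelled Oxtr-KO, and held 38.6% and 63.4% of their Got1 UMIs. Without these nuclei the log2 difference of Got1 was 0.94 in myoepithelial nuclei and 0.21 in fibroblast nuclei. How much of the Got1 difference outside the secretory cells comes from RNA or nuclei of secretory cells was not tested.

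**Figure D2:**
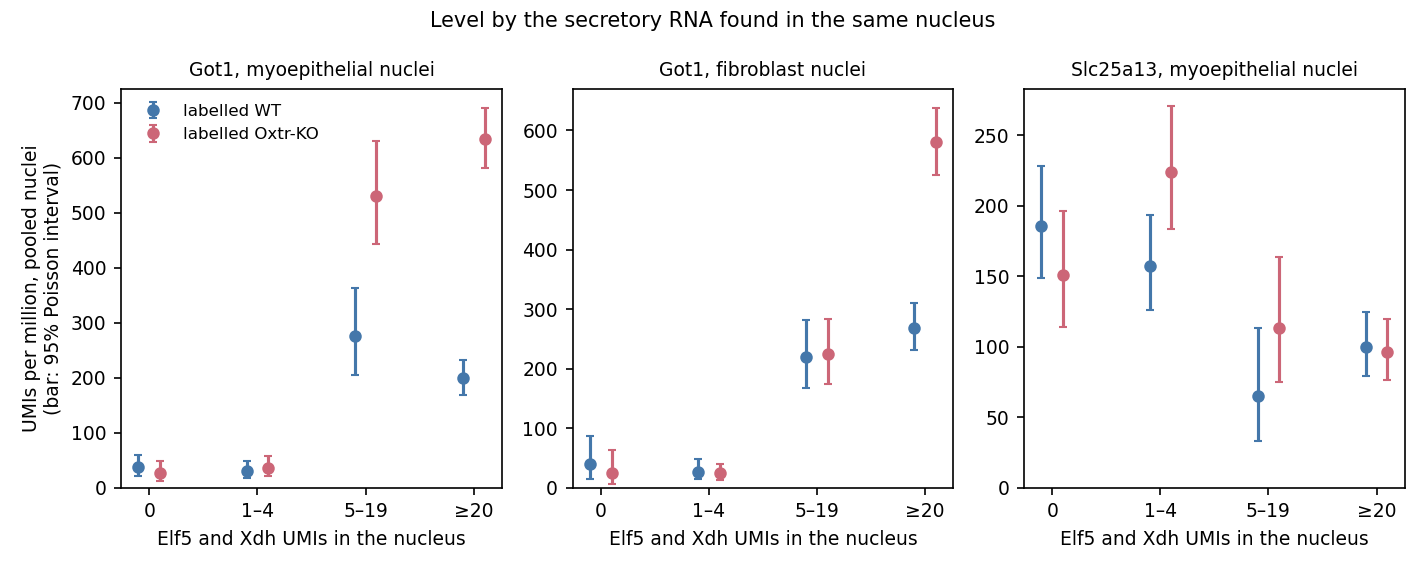
CPM of Got1 in myoepithelial and fibroblast nuclei and of Slc25a13 in myoepithelial nuclei, by the number of Elf5 and Xdh UMIs in the nucleus, pooled over the 4 WT animals (blue) and the 4 labelled Oxtr-KO (red) with 95% Poisson intervals. Myoepithelial Got1 goes from 37.5 and 27.0 with no such UMI to 199 and 635 with 20 or more, while the 2 highest Slc25a13 values of each label are those with none and with 1 to 4.

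None of the 6 partners followed Got1 past the threshold in any cell type. Of 22 results over the 8 cell types that passed the filter on low counts, 0 had an adjusted p under 0.05 with edgeR's quasi-likelihood test, and with all nuclei together it was 0 of 28. Only 1 of the 28, Slc25a12 in the Klra2 cluster, had an unadjusted p under 0.05. DESeq2 also called 0, with 0 unadjusted p-values under 0.05. It gave no adjusted p for Got2, Mdh2 and Slc25a11 in myoepithelial nuclei, so it could not call these. The p-values measure the spread between these 8 animals. Low counts limited the tests outside secretory and myoepithelial nuclei, where all 6 partners passed the filter. Fibroblast nuclei and the Klra2 cluster kept 3 partners each, luminal progenitor nuclei 2, adipocyte and endothelial nuclei 1 each, and macrophage nuclei none.

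Read against all genes, few or no genes of any kind were called between the labels. In secretory nuclei edgeR called 0% of 12836 genes, 1092 of them with an unadjusted p under 0.05, and DESeq2 called 22. In myoepithelial nuclei it called 0.0148% of 6755 genes, which is Got1 alone, and since Got1 was selected on this contrast nothing is read from it. In endothelial nuclei it called 0.0408% of 2452 genes, again 1 gene, Plpp4, a lipid phosphate phosphatase, at 286 CPM in WT animals and 38.9 in those labelled Oxtr-KO (log2 difference −2.71, SE 0.45, adjusted p = 0.0240). Plpp4 is also among the leading genes of the Clec12a cluster of secretory nuclei. Elf5 and Xdh together stood at 3997 ± 269 CPM in endothelial nuclei of WT animals and 3452 ± 324 in those labelled Oxtr-KO. How much of the Plpp4 difference comes from secretory RNA was not tested. No gene passed in the other types or over all nuclei with edgeR, where 63 to 1271 genes per fit had an unadjusted p under 0.05. DESeq2 called 27 genes over all nuclei, 2 in adipocyte nuclei, 1 each in myoepithelial and endothelial nuclei and 0 in the other types. Without WT animal 4, edgeR called 31 genes in secretory, 44 in adipocyte, 8 in myoepithelial and 2 in fibroblast nuclei and 14 over all nuclei, none of them a partner. None of the 6 partners had groups without overlap in a cell type where it was tested.

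**Figure D3:**
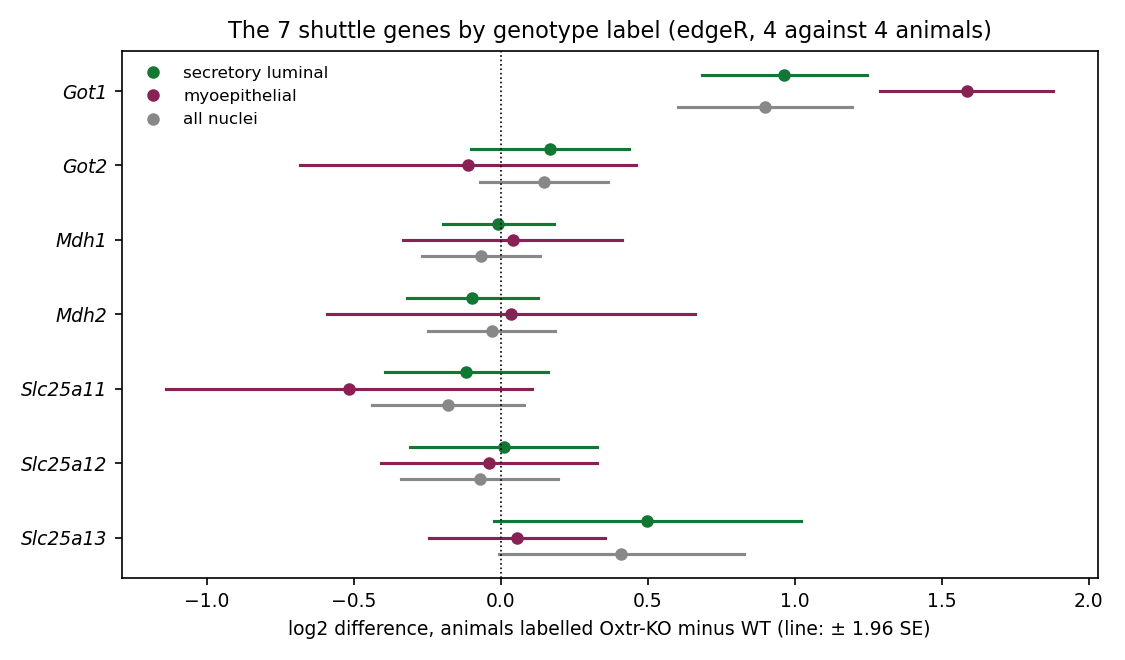
Log2 difference, animals labelled Oxtr-KO minus WT, of the 7 shuttle genes in secretory luminal, myoepithelial and all nuclei, from edgeR on 4 against 4 animals, with 95% intervals as lines. Got1 lies at 0.96, 1.58 and 0.90, and every line of a partner crosses 0, Slc25a13 in secretory nuclei (0.50) and in all nuclei (0.41) only just.

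In the cytosol, Mdh1 works directly after Got1. Secretory nuclei of WT animals held 114, 118, 121 and 137 CPM of Mdh1 and those of animals labelled Oxtr-KO 128, 132, 119 and 120. The range under the Oxtr-KO label lay inside that of the WT animals, and the log2 difference was −0.01 (95% interval from the SE, −0.20 to 0.18, edgeR adjusted p = 0.986). In the same nuclei Got1 differed by 0.96 (0.683 to 1.245), on the contrast it was selected on. The Mdh1 and Got1 differences were not set against each other by a test. In adipocyte nuclei, where Mdh1 was highest, WT animals stood at 215, 256, 99.2 and 218 and those labelled Oxtr-KO at 114, 145, 71.3 and 183 CPM. The difference was −0.61 (−1.20 to −0.02, edgeR unadjusted p = 0.0599, adjusted p = 0.668), with overlapping groups. The normal interval leaves out 0 here only because it is narrower than the edgeR test allows. Luminal progenitor nuclei went the other way, with 31.5 to 89.1 in WT animals and 81.8 to 116 in those labelled Oxtr-KO, a log2 difference of 0.65 (adjusted p = 0.959) on 36 WT UMIs. Mdh1 differed by 0.04 in myoepithelial nuclei, −0.04 in fibroblast nuclei, 0.41 in the Klra2 cluster and −0.62 in endothelial nuclei, with adjusted p-values of 0.880 and above. Thus no direction was shared by Mdh1 across cell types.

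The mitochondrial pair had low counts in these nuclei. Got2, which turns oxaloacetate back into aspartate, stood at 13.01, 15.6, 12.4 and 14.4 CPM in secretory nuclei of WT animals and at 16.3, 16.7, 18.5 and 12.8 in those labelled Oxtr-KO. The animals overlap, and the log2 difference was 0.17 (−0.10 to 0.43, edgeR adjusted p = 0.742). Mdh2, which makes the oxaloacetate, stood at 15.4 to 17.6 and 14.9 to 15.9, with a difference of −0.10 (−0.32 to 0.12, adjusted p = 0.823). In myoepithelial nuclei Got2 differed by −0.11 (SE 0.29, adjusted p = 0.971) and Mdh2 by 0.03 (SE 0.32, adjusted p = 0.998). In fibroblast nuclei Mdh2 was the 1 partner of 6 whose animals did not overlap, at 22.1, 21.6, 12.6 and 20.5 CPM in WT animals and 28.3, 26.5, 29.1 and 22.6 in those labelled Oxtr-KO. It rested on 31 and 48 UMIs and did not pass the filter for a test. Of all 6479 genes tested in fibroblast nuclei, 3.12% had groups that did not overlap, and 1 gene of 6 is no more than a description.

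Among the carriers, Slc25a11, which exchanges malate for 2-oxoglutarate, was level in secretory nuclei, at 15.6 to 20.3 CPM in WT animals and 13.7 to 19.3 in those labelled Oxtr-KO. The log2 difference was −0.12 (−0.40 to 0.16, edgeR adjusted p = 0.831). In myoepithelial nuclei the WT animals stood at 23.3, 29.95, 27.9 and 22.7 and the others at 18.9, 16.8, 9.504 and 25.6, a difference of −0.52 (−1.14 to 0.11, adjusted p = 0.757). That is the opposite direction to Got1 in the same nuclei, and it did not pass the test. Slc25a12 in secretory nuclei stood at 25.3 to 32.7 and 20.9 to 36.3 CPM, a difference of 0.01 (−0.31 to 0.33, adjusted p = 0.992). In the Klra2 cluster, where it was highest, Slc25a12 was 154, 71.8, 100.1 and 66.8 in WT animals and 51.5, 72.9, 41.2 and 53.1 in those labelled Oxtr-KO. Its log2 difference there was −0.72 (unadjusted p = 0.0472, adjusted p = 0.766), and the animals overlapped.

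Slc25a13, the citrin carrier, had the largest log2 difference of the 6 partners in secretory nuclei, and 1 WT animal moved it most. The WT animals stood at 40.0, 34.1, 41.5 and 90.9 CPM and those labelled Oxtr-KO at 72.7, 53.0, 88.4 and 80.6. All of the latter lay above 3 of the WT animals, and WT animal 4 lay above all of them. The means were 51.6 ± 26.4 and 73.7 ± 15.2 (SD, n = 4), and the log2 difference was 0.50 (−0.02 to 1.02, edgeR adjusted p = 0.629). Without WT animal 4 it was 0.86 with an adjusted p of 0.0647, and over all nuclei it went from 0.41 to 0.68 with an adjusted p of 0.0878. Both values without that animal stayed above the threshold. WT animal 4 had the highest Got1 of its group in secretory nuclei as well, at 417, but below every animal labelled Oxtr-KO.

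WT animal 4 was high in Slc25a13 in each cluster of secretory nuclei. It had 82.8% of its secretory nuclei in the Ak9 cluster, against 18.7% to 45.0% in the other WT animals. Its Slc25a13 was 88.0 in the Ak9 cluster, 96.7 in the Clec12a cluster and 109 CPM in the Top2a cluster, where the other WT animals stood at 33.7 to 42.2, 34.4 to 40.4 and 25.7 to 57.2. The animals labelled Oxtr-KO ran from 53.6 to 78.3, 54.1 to 91.1 and 37.4 to 125. What sets this animal apart was not tested.

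**Figure D4:**
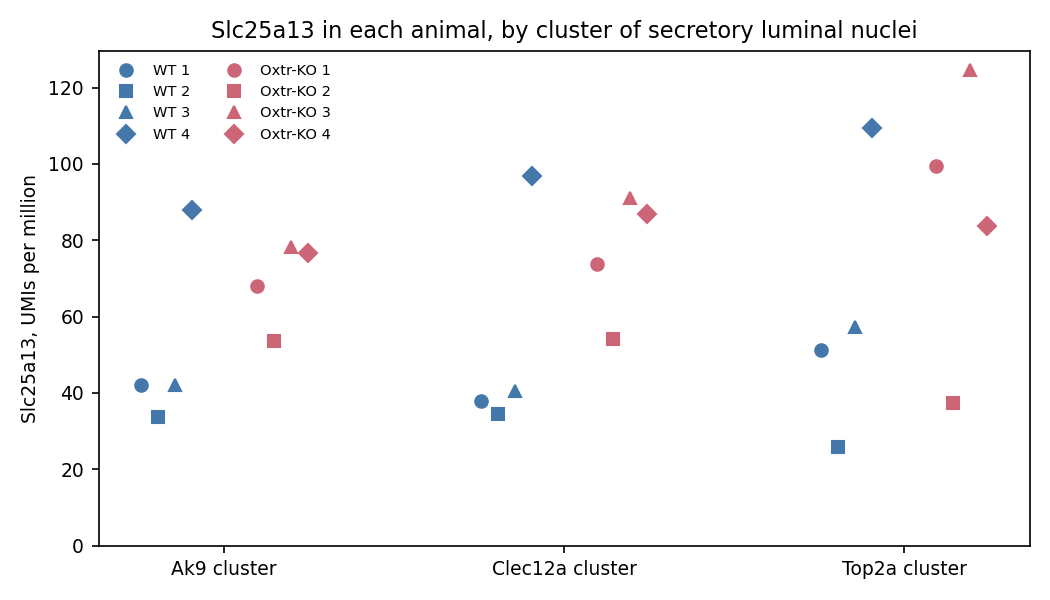
Slc25a13 in CPM in each animal, in the Ak9, Clec12a and Top2a clusters of secretory luminal nuclei (WT blue, labelled Oxtr-KO red, a marker shape per animal number). WT animal 4 (blue diamond) stands at 88.0, 96.7 and 109, above the 3 other WT animals in each cluster.

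Outside secretory nuclei, the log2 difference of Slc25a13 was 0.10 or less in 3 of the 4 types tested and 0.56 in the Klra2 cluster. Myoepithelial nuclei, where its mean was highest, had 136, 108, 137 and 149 CPM in WT animals and 132, 147, 127 and 149 in those labelled Oxtr-KO, a log2 difference of 0.05 (−0.25 to 0.35, edgeR adjusted p = 0.973). Got1, selected on this contrast, differed by 1.58 in those same nuclei. In the Klra2 cluster the interval of the Slc25a13 difference ran from −0.10 to 1.22 (edgeR adjusted p = 0.813). It was 0.10 in fibroblast nuclei (−0.62 to 0.81, adjusted p = 0.996) and 0.08 in luminal progenitor nuclei (−0.60 to 0.77, adjusted p = 0.987). Where Slc25a13 was not tested, its animals overlapped in adipocyte, macrophage and endothelial nuclei. In plasma-like nuclei, which were not compared, 2 WT animals stood at 21.5 and 44.7 CPM and 3 labelled Oxtr-KO at 69.6 to 86.7. That rests on 7 and 22 UMIs and is no more than a description. By the Elf5 and Xdh UMIs of a myoepithelial nucleus, Slc25a13 stood at 185.5 CPM (149 to 228) in WT animals with none, 157 (126 to 194) with 1 to 4, 64.8 (33.5 to 113) with 5 to 19 and 100.1 (79.1 to 125) with 20 or more. Under the Oxtr-KO label it stood at 151 (114 to 196), 224 (184 to 271), 113 (75.4 to 164) and 96.1 (76.3 to 119). The intervals with none and with 20 or more did not overlap in WT animals and overlapped under the Oxtr-KO label.

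The 7 genes were ordered differently over the cell types, described here by the mean level of WT animals over 10 cell types, each gene on its own. Got1 was highest in a cluster of low-depth nuclei (367 ± 124 CPM) and in secretory nuclei (360 ± 40.1), and lowest in adipocyte (79.0 ± 41.0) and luminal progenitor nuclei (62.0 ± 9.46). The low-depth cluster was led by the secretory marker Glycam1, and all 10 secretory markers stood out in it, so its markers do not set it apart from secretory cells. The order of Got1 was not corrected for the secretory RNA found in every type. In pooled WT nuclei without Elf5 or Xdh UMIs, Got1 was 85.4 in macrophage, 39.8 in fibroblast and 37.5 in myoepithelial nuclei. It was 26.9 in the Klra2 cluster and 0 in adipocyte and endothelial nuclei, most of these on few UMIs. Mdh1 had a different order, from 197 ± 67.8 in adipocyte and 122.5 ± 10.3 in secretory nuclei to 60.5 ± 24.4 in luminal progenitor nuclei. Slc25a13 was highest in myoepithelial (132 ± 17.2) and luminal progenitor nuclei (113 ± 54.2), 51.6 ± 26.4 in secretory nuclei and lowest in adipocyte nuclei (17.2 ± 21.2). The other carrier of aspartate, Slc25a12, was highest in the Klra2 cluster (98.1 ± 39.8) and in myoepithelial nuclei (71.4 ± 5.94), 29.5 ± 3.21 in secretory nuclei and lowest in adipocyte nuclei (6.18 ± 6.26). Slc25a11 ran from 26.0 ± 3.51 in myoepithelial to 6.78 ± 8.15 in macrophage nuclei and Mdh2 from 36.6 ± 19.8 in adipocyte to 16.4 ± 1.10 in secretory nuclei. Got2 ran from 43.8 in plasma-like nuclei of 2 animals and 26.9 ± 8.41 in myoepithelial nuclei to 4.66 ± 6.24 in adipocyte nuclei. Neighbours in these orders overlapped between animals, with the exceptions of Got1 between fibroblast and myoepithelial nuclei and of Got2 between plasma and myoepithelial nuclei.

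Likeness of pattern was measured as Pearson's r over 13 cell types of pooled WT nuclei, as log2 of CPM plus 10, among 4103 genes. All types share 1 library and its free RNA. The genes most like Got1 were the serum and glucocorticoid kinase gene Sgk1 (r = 0.92), Gtpbp2 (0.88), Lurap1 (0.87), Gde1 (0.86) and Taf2 (0.84). Its r was 0.03 with Mdh1 and −0.14 with Slc25a13, and the other 4 partners had too few UMIs to enter. Slc25a13 was most like the epithelial transcription factor gene Grhl2 (0.89), the collagen receptor gene Ddr1 (0.81), Patj (0.81), Myo18a (0.81) and Ptpn3 (0.80), and its r with Mdh1 was −0.42.

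None of the tested genes nearest to Got1 had a log2 difference as large as its own. No gene directly beside Got1 was tested. The nearest tested genes stood 5 (Hpse2) and 6 (Slc25a28) places away in both cell types. The farthest used stood 12 places away in secretory and 20 in myoepithelial nuclei. Taking the 5 nearest tested genes on each side in annotation order, the log2 differences of these 10 genes ran from −0.20 to 0.46 in secretory nuclei and from −0.52 to 0.48 in myoepithelial nuclei. edgeR called 0 of 10 in each, with lowest adjusted p-values of 0.544 and 0.540. Slc25a28, the nearest tested gene on one side in both cell types and a mitochondrial iron carrier gene, differed by 0.03 in secretory and 0.48 in myoepithelial nuclei.

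The wider pathway was read from lists of genes around the shuttle, and no gene of any list passed the test in any cell type. In secretory nuclei 13 of 19 enzymes of glutamate and aspartate were tested, 5 above 0 and 8 below, with a median log2 difference of −0.03 beside −0.01 for all genes. Their smallest p-values belonged to Psat1, the serine pathway aminotransferase (−0.95, edgeR adjusted p = 0.632), and Gpt2, the mitochondrial alanine aminotransferase (216 ± 47.4 and 165 ± 36.4 CPM, −0.43, adjusted p = 0.635). All 14 genes of the citric acid cycle were tested, 7 above 0 and 7 below with a median of −0.02, and Dlst, a subunit of the 2-oxoglutarate dehydrogenase complex, went from 35.7 ± 2.93 to 26.8 ± 1.21 (−0.45, adjusted p = 0.544). For the branch of malate, citrate and pyruvate 9 of 11 genes were tested, 2 above 0 and 7 below, with a median of −0.04, among them the malic enzyme gene Me1 at 859 ± 256 and 716 ± 136 (−0.31, adjusted p = 0.742).

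Of other routes that handle cytosolic NADH, 5 of 6 tested genes stood above 0 in secretory nuclei, with a median log2 difference of 0.23. Of all 12836 genes there, 6223 stood above 0. Ldhb, a lactate dehydrogenase subunit, differed by 0.70 (edgeR adjusted p = 0.611) and Gapdh, of glycolysis, by 0.24 (adjusted p = 0.643). Carriers of glutamate and aspartate had a median of −0.26 over 7 tested genes, with the heavy chain Slc3a2 at 0.22 (adjusted p = 0.608) and the cystine and glutamate exchanger Slc7a11 at −0.82 (adjusted p = 0.636). Of the cysteine sulfinate genes, Csad differed by 0.39 and Cdo1 by 0.41 (adjusted p = 0.626 and 0.708). In myoepithelial nuclei the medians of these 6 lists lay between −0.21 and 0.13, and the citric acid cycle gene Sucla2, a succinyl-CoA ligase subunit, had a log2 difference of −0.82 (56.4 ± 4.63 and 31.7 ± 7.96, adjusted p = 0.302). The glycerol phosphate enzyme gene Gpd1l differed there by 0.85 (18.6 ± 7.10 and 36.0 ± 11.1, adjusted p = 0.506).

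Genes of the amino acid response driven by Atf4 and genes of the glucocorticoid response were listed too, since glucocorticoids are known to induce Got1 in liver and Atf4 controls many enzymes of amino acid synthesis. In secretory nuclei 5 of the 19 Atf4 genes lay above 0 and 14 below (median log2 difference −0.40), beside 6223 of all 12836 genes above 0. The smallest p-value belonged to Chac1, a glutathione-degrading enzyme, at 5.18 ± 1.65 and 2.03 ± 0.690 CPM (−1.48, edgeR adjusted p = 0.544), followed by the mitochondrial folate enzyme gene Aldh1l2 (−0.80, adjusted p = 0.561). In myoepithelial nuclei 6 were tested, 5 above 0, with a median of 0.33, beside 3264 of all 6755 genes above 0. Of the 14 glucocorticoid response genes, 12 lay above 0 in secretory nuclei, with a median of 0.35. In myoepithelial nuclei 11 of 13 tested lay above 0, with a median of 0.36. Their smallest p-values belonged to Lcn2, the iron-binding lipocalin (89.1 ± 27.3 and 150 ± 45.4, log2 difference 0.71, adjusted p = 0.544), and the phosphatase gene Dusp1 (22.3 ± 22.8 and 72.1 ± 40.9, 1.70, adjusted p = 0.544) in secretory nuclei. In myoepithelial nuclei they belonged to Tsc22d3 (95.2 ± 15.7 and 152 ± 50.5, 0.63, adjusted p = 0.367) and Zbtb16 (0.59, adjusted p = 0.441). None of these passed the threshold. The lists were chosen with earlier results of these data known, and whether either response bears on Got1 was not tested.

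The Got1 differences of 2 cell types were not set against each other by a test, since Got1 was selected on that contrast. For the partners, 40 pairs of cell types were compared by an exact two-sided permutation test over animals of the difference between their log2 differences. The lowest exact p was 0.0286, reached by 3 pairs and the smallest that 4 against 4 animals can give, and the lowest adjusted value was 0.327. Those 3 pairs were Mdh1 between luminal progenitor and fibroblast nuclei, Mdh1 between luminal progenitor and secretory nuclei, and Slc25a12 between the Klra2 cluster and fibroblast nuclei. Adjusted over 40 pairs, the smallest possible p can pass only if most pairs reach it. The test could thus hardly call any pair, and no likeness of cell types is read from it.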

How the data were processed

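The authors deposited raw UMI counts per gene and barcode as a sparse matrix, made with fastp, Cell Ranger 7.2.0 and the GRCm39 build per the submitters' processing notes, and a table of read counts for each barcode, UMI and hashtag, from which hashtag UMIs were counted here. Nuclei needed at least 500 UMIs, 300 genes and under 5% mitochondrial UMIs. Hashtags were called with HTODemux (Seurat 5.3.0, positive quantile 0.99) on 9 of 10 hashtags. Nuclei with more than 1 hashtag (2041) were removed as doublets, and 5479 with none and 277 of an unnamed hashtag entered no comparison. Scrublet's automatic threshold marked 1 nucleus, so it did not work here and its highest 5% were left out as an alternative. Clusters (scanpy 1.11.5, Leiden resolution 0.5) were named from marker genes; free RNA was not removed.

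For each animal, UMIs of a cell type's nuclei were added up where 10 or more nuclei were present for 3 or more animals of either label, and tested with edgeR 4.0.16 (filterByExpr, TMM, glmQLFit and glmQLFTest, genotype only), with Benjamini-Hochberg adjustment over all genes tested and a threshold of 0.05. Levels are CPM (UMIs per 1000000) of the summed counts, not scaled by TMM, and 95% intervals of log2 differences are normal ones from the SE. With few animals these intervals are narrower than the edgeR test allows, so 1 can exclude 0 where the unadjusted p is above 0.05. The median log2 difference of all genes lay between −0.01 and 0.01 in the 9 fits. The procedure was tested on simulated data. Alternatives were DESeq2 1.42.0, other scalings, no filter, a replicate block, leaving out each animal, other hashtag calls, 1000 UMIs per nucleus, a finer clustering and nuclei without Elf5 or Xdh UMIs, the last and the call with all 10 hashtags chosen after seeing the data.

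The members, the gene lists and the markers were chosen with earlier results of these data known. Named genes are the 7 members, at most 2 genes per list with the smallest p in the cell type where edgeR called Got1 (myoepithelial nuclei, a choice that rests on the contrast Got1 was selected on), the 5 tested genes on each side of Got1, the 5 genes most like Got1 and Slc25a13, and any gene called in as many cell types as Got1. The list genes of secretory nuclei were named by the same order of p, but secretory nuclei were added to that rule after the values were seen. R 4.3.3 and Python 3.11.15 were used.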

Additional observations from a re-analysis of the deposited data

Results flagged for a closer look

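In groups of 4 animals, 1 animal stood apart from the other 3 in 5 of 74 groups tested, where chance gives about 1 in 20. WT animal 4 was such an animal for Slc25a13 in secretory nuclei, at 90.9 CPM against 34.1 to 41.5, for Slc25a13 over all nuclei, at 88.1 against 39.5 to 45.0, and for Got1 in fibroblast nuclei, at 246 against 140 to 145. Among the animals labelled Oxtr-KO, number 3 stood apart for Mdh2 in secretory nuclei, at 14.9 against 15.8 to 15.9, and for Slc25a13 in fibroblast nuclei, at 63.1 against 26.5 to 30.4.

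Nuclei without a called hashtag enter no comparison, and 4 of their pooled levels lay above the highest WT animal with a 95% Poisson interval that excluded it. Their myoepithelial nuclei (931) held 175.9 CPM of Slc25a13, where the highest WT animal had 148.8, and 93.9 of Slc25a12, where it had 76.0. Pooled WT nuclei held 133 and 72.1. Markers of myoepithelial cells were higher in the nuclei without a hashtag too. Trp63 was 821, Acta2 1182 and Krt14 68.3, against 639, 888 and 49.1 in pooled WT nuclei, so the excess was not particular to the carriers. The same nuclei held 50.4 of Got1 and 494 of Elf5 and Xdh together, against 121 and 2309 in pooled WT nuclei and 358 and 2382 in pooled nuclei labelled Oxtr-KO. Secretory nuclei without a hashtag (1100) held 454 of Got1, between the highest WT animal (417) and the lowest labelled Oxtr-KO (623). Endothelial nuclei without a hashtag held 49.3 of Mdh2, where the highest WT animal had 23.7. Which animals these nuclei came from was not tested.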

How the results depend on the processing

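Got1 was above 0 in all 164 results under other settings, and 0 of 547 partner results was called in any of the 20 alternatives. The 547 include Got2, Mdh2 and Slc25a11 in myoepithelial nuclei, for which DESeq2 gave no adjusted p. Since Got1 was selected on this contrast and every setting reuses the same animals, nothing is read from its sign. The Got1 log2 difference moved by more than 1 SD between animals in myoepithelial nuclei, to 0.72 with the ratio rule for hashtags (2 against 2 animals) and to 0.94 without the highest 5% of Scrublet scores, in fibroblast nuclei to 0.21 without those nuclei, and in luminal progenitor nuclei to 1.21 with all 10 hashtags called. It also went from 1.44 to 0.90 in the Klra2 cluster with centred log ratios within barcodes and from 1.01 to 0.55 in adipocyte nuclei without the highest Scrublet scores. Of 505 uncalled partner values under other settings 56 had the opposite sign, and 15 moved by at least 1 SD between animals.

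Counts of genes called depended on the settings, and the cause was not tested. With no filter on low counts edgeR called 5 genes in the Klra2 cluster, 88 in adipocyte, 19 in fibroblast, 21 in luminal progenitor, 12 in macrophage, 53 in myoepithelial and 31 in endothelial nuclei. DESeq2 called 2 in adipocyte nuclei, 22 in secretory nuclei and 27 over all nuclei. In myoepithelial nuclei 0 were called with centred log ratios within barcodes, the ratio rule, without the highest Scrublet scores or in nuclei without Elf5 or Xdh UMIs, and in endothelial nuclei 0 with all 10 hashtags, centred log ratios or without the highest Scrublet scores. In fibroblast nuclei without Elf5 or Xdh UMIs 2 were called, and Got1 was too low for a fit in such nuclei of either type.

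Leaving out 1 animal at a time gave 0 to 44 called genes in adipocyte, 0 to 2 in fibroblast, 1 to 8 in myoepithelial, 0 to 31 in secretory, 0 to 1 in endothelial and 0 to 14 in all nuclei. Each of the highest counts but that of endothelial nuclei came without WT animal 4, and the call in endothelial nuclei was lost without WT animals 2 or 3 or those labelled Oxtr-KO 1 or 4. With the replicate block 9 genes were called in adipocyte, 1 in fibroblast and 21 in myoepithelial nuclei, and 0 partners. Deviations from the group means of same-numbered animals correlated at 0.37, −0.02, 0.32 and 0.17 in secretory, 0.14, −0.05, 0.28 and 0.23 in all and 0.08, −0.02, 0.09 and 0.15 in myoepithelial nuclei. Own numbers correlated best for 2, 2 and 3 of 4. As 1 pair or more stayed under 0.1 in each, and no label ties the numbers, they were not taken as pairs. The ratio rule could be fitted in secretory, myoepithelial and all nuclei only, and centred log ratios not in macrophage nuclei.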
